A study of Mus musculus with 16 samples.

Results

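The genes described here are those of fatty acid activation and mitochondrial β-oxidation in mouse kidney, 30 members chosen by name: 5 acyl-CoA synthetases, 5 genes of carnitine transfer, 8 acyl-CoA dehydrogenases, 5 genes of the later steps of the cycle, 4 auxiliary enzymes for unsaturated fatty acids and 3 genes of electron transfer. Each gene was read from its brightest probe set that names a single gene. Of the 30 members, 27 were measured among 22180 genes in all. Acsl1 was not named in the annotation table used, Acsl3 shares its probe set with Utp14b, and Cpt1b shares its probe set with Gm44502 and Chkb, so no value was given to these 3. Crat and Acsl6 had a further, dimmer probe set each.

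Fatty acids enter mitochondrial β-oxidation in a fixed order. Acyl-CoA synthetases activate them, and they enter mitochondria as carnitine esters, which the carnitine palmitoyltransferases form and turn back. A repeating cycle of dehydrogenation, hydration, a further dehydrogenation and thiolysis then shortens them to acetyl-CoA. The electrons of the first step pass from the acyl-CoA dehydrogenases to the electron transfer flavoprotein and from there through its ubiquinone oxidoreductase into the respiratory chain. The proximal tubule of the kidney lives largely on this pathway, and PGC-1α, a coactivator of the nuclear receptors PPARα and ERRα, is a known regulator of its genes.

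Whole kidney of male mice was measured on Affymetrix Mouse Gene 2.0 ST arrays, with 4 samples in each of 4 groups. NiPKO mice carry floxed PGC-1α alleles together with a Pax8-driven, doxycycline-dependent Cre that is active along the tubule and spares the glomerulus. They and control littermates were kept for 5 months on chow or on a diet with 60 kcal% from fat, abbreviated HFD. The chow held 10 kcal% from fat. For the knockout, doxycycline at 0.2 mg/mL in water with 2% sucrose was given for 2 weeks from 12 weeks of age, and the diets began 1 or 2 weeks after its end, on which the study's text and a legend differ. The sources used here do not say which transgenes the control littermates carried or whether they drank doxycycline. The floxed line was on C57BL/6 and the transgenes on a mixed background, and Pax8 also drives some recombination in liver. The samples are titled as biological replicates, and no label ties a sample to an animal, litter, batch or scan, so the p-values rest on the scatter among samples, which may be technical in part, and no batch could be tested. Values are log2 levels as the authors deposited them, between 2.07 and 13.81, and a difference of 1 on this scale is a doubling. In whole tissue, fewer cells of a type and less RNA per cell cannot be told apart.

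The probe set of the targeted gene did not read lower in the samples labelled NiPKO. Ppargc1a, which encodes PGC-1α, was at 9.68, 9.59, 9.56 and 9.60 in the chow-fed controls and at 9.91, 10.18, 10.05 and 10.09 in the chow-fed samples labelled NiPKO. The HFD values were 9.57, 9.52, 9.45 and 9.32 in the controls and 9.96, 9.96, 10.07 and 9.96 in the samples labelled NiPKO. The samples labelled NiPKO were thus the higher ones on both diets, with no overlap, by 0.45 ± 0.07 (SE) on chow (adjusted p = 0.00258) and 0.52 ± 0.07 on HFD (adjusted p = 0.00132). The deletion removes exons 3 to 5, and the sources used here do not place this probe set on the transcript, so its value checks no label. Every difference between genotypes below is therefore between samples labelled NiPKO and samples labelled control.

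Markers of the proximal tubule, the segment that gives a kidney most of its cortex, were bright in every sample, with 9 of 10 measured and a summed linear level between 44008 and 47779. Sums over the markers of the other nephron segments, podocytes, endothelium, leukocytes, stroma, fat, adrenal cortex, muscle and liver were read in the same way. Between the genotypes on chow and between the diets in controls, the ranges of every sum overlapped, and so they did between the genotypes on HFD. Single markers still moved. All 5 collecting duct principal markers were lower on HFD in controls (median -0.20, 1 at an adjusted p under 0.05). The 5 intercalated markers had a median of 0.25 between the genotypes on HFD. All 5 endothelial markers were lower in the samples labelled NiPKO on both diets (medians -0.09 and -0.07). Overlapping sums thus do not show equal composition. Between the diets in the samples labelled NiPKO, 3 sums did not overlap and were higher on HFD: white adipocyte markers, 7 of 8 measured, with 965 to 1200 on chow and 1250 to 2046 on HFD, endothelial markers with 3115 to 3282 and 3358 to 3638, and podocyte markers with 990 to 1120 and 1192 to 1238. Brown adipocyte markers, 3 of 4 measured, summed to 53 to 70 in 15 samples and to 333 in HFD NiPKO replicate 1, where Ucp1, which uncouples respiration in brown fat, was at 7.96 against 4.47 to 5.07 elsewhere. Member counts on HFD that use this sample are therefore also given without it, and the part of these cells in any result was not tested.

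The members read lower in the samples labelled NiPKO on both diets, and HFD moved some of them up and others down. In the samples labelled NiPKO, 24 of 27 members had a lower mean than in controls on chow (47.4% of all genes did) and 24 of 27 on HFD (49.4% of all genes). The median log2 fold change over the members was -0.12 on chow and -0.15 on HFD, against 0.01 and 0.00 over all genes. Without Chow NiPKO replicate 2 the median on chow was -0.06. The 11090 genes above the median level hold 25 of the 27 members. Of these genes, 6324 had a lower mean on chow (median -0.02) and 4357 on HFD (median 0.03). On chow, 3 members were lower at an adjusted p under 0.05 (0.974% of all genes), namely Echs1, Etfa and Etfdh, and 1 or 2 members passed when any 1 of the chow-fed samples was left out. With the thresholds that the study set for its arrays, a fold change over 1.2 at an unadjusted p under 0.05, Hadhb joined them to make 4 (2.09% of all genes). On HFD, Crat and Etfdh were lower at an adjusted p under 0.05 (0.595% of all genes), and Crat, Acadl, Acadvl, Hadha, Acaa2 and Etfdh passed the study's thresholds as lower (1.79% of all genes). No member was higher by the study's thresholds on chow (2.33% of all genes) or HFD (1.93%), nor after adjustment (0.302% and 0.23%). Among the 11090 brighter genes, 202 on chow and 123 on HFD were lower after adjustment, and 350 and 231 by the study's thresholds.

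The separation of the groups showed the same direction. On chow, 7 members lay wholly below the control samples in the samples labelled NiPKO (4.15% of all genes), which were Crat, Acadl, Hadh, Hadhb, Echs1, Etfa and Etfdh, and 1 member, Cpt1c, lay wholly above them (3.29% of all genes). On HFD, 10 members lay wholly below (3.38% of all genes), which were Crat, Acadm, Acadvl, Acad11, Hadh, Hadha, Acaa2, Etfa, Etfb and Etfdh, and none wholly above (3.5%). Without HFD NiPKO replicate 1 the median on HFD was -0.15, and 11 members lay wholly below (4.82% of all genes). In this setting 4 members passed the study's thresholds as lower (1.97% of all genes), and 1, Etfdh, passed after adjustment (adjusted p = 0.0293). The count past the study's thresholds on HFD was 3 without HFD CTRL replicate 3 and 8 without HFD CTRL replicate 1. Apart from most counts without HFD NiPKO replicate 1, counts after leaving out a sample are given throughout without a share of all genes.

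Averaged over both diets, with 8 samples on either side, 7 members fell in the samples labelled NiPKO at an adjusted p under 0.05 (1.83% of all genes were lower by this rule) and none rose (0.852%). Of the 11090 genes above the median level, 383 were lower by this rule. The 7 members were Crat, Acadl, Acadvl, Echs1, Acaa2, Etfa and Etfdh. The differences ran from -0.31 for Etfdh to 0.05 for Acsl4, with 24 of 27 below 0 (46.9% of all genes) and a median of -0.13 against 0.01 over all genes, so that none exceeded the 1.24-fold of Etfdh. By the study's thresholds 3 members were lower on this average (1.22% of all genes), Acadvl, Hadhb and Etfdh, and none was higher (1.2%), with 1 without Chow NiPKO replicate 2 and 6 without HFD CTRL replicate 1.

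**Figure D1:**
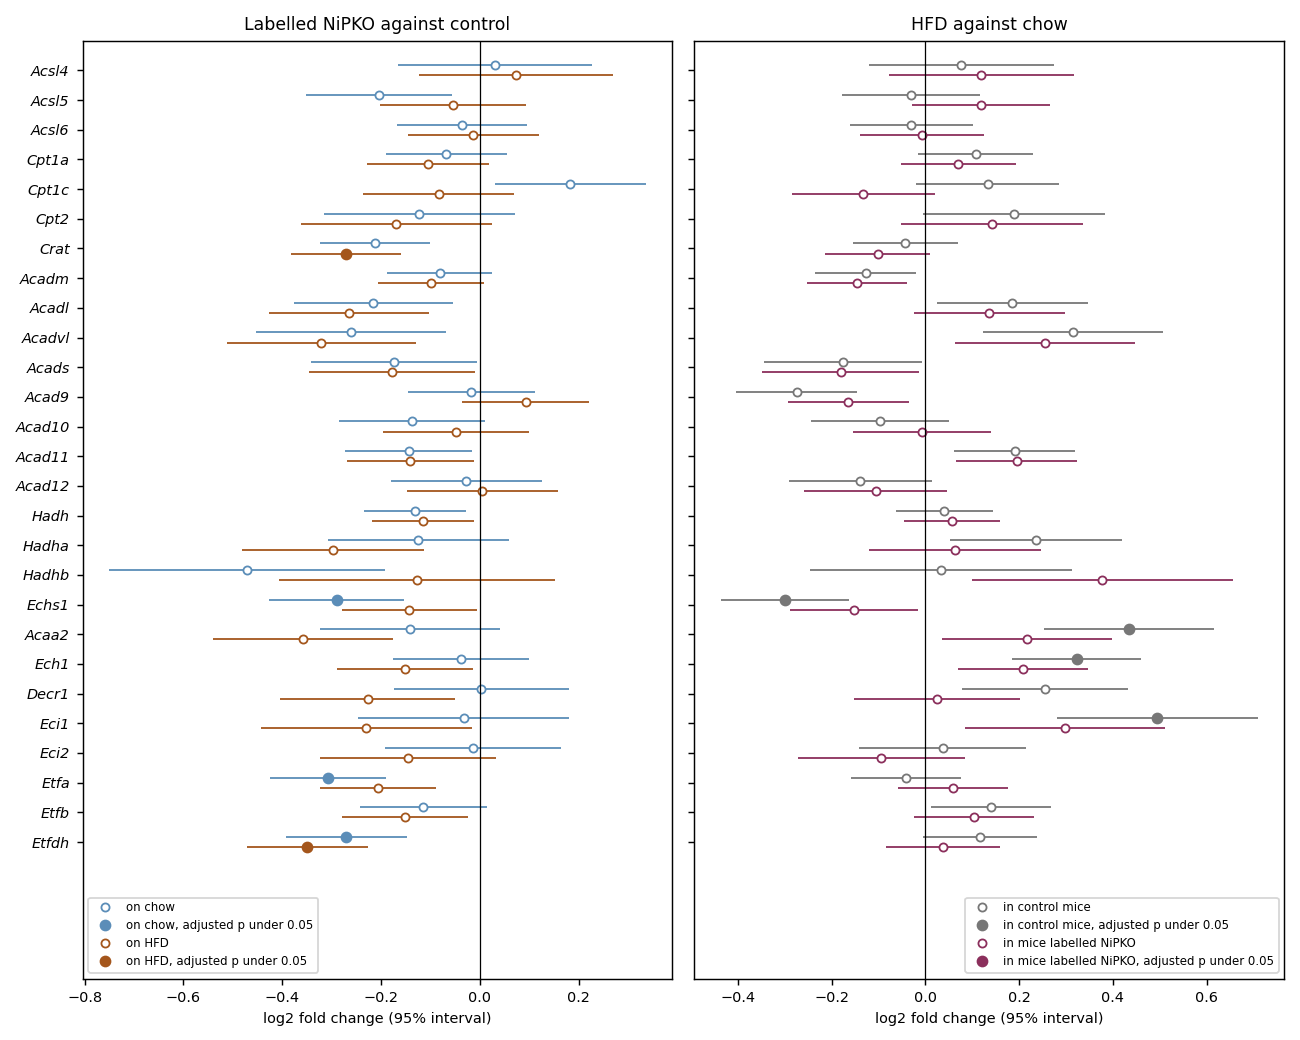
Log2 fold changes of the 27 measured members with 95% intervals, samples labelled NiPKO against controls on the left and HFD against chow on the right. Filled points passed an adjusted p under 0.05, and 24 of 27 points lie below 0 on the left for each diet, while the points on the right fall on both sides of 0.

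HFD against chow divided the members. In controls 17 members had a higher mean on HFD (53.3% of all genes did) and 10 a lower one (46.7%), with a median of 0.08 against 0.01 over all genes. Ech1, Acaa2 and Eci1 rose at an adjusted p under 0.05 (0.176% of all genes) and Echs1 fell (0.388%). By the study's thresholds Acadvl joined the higher ones to make 4 (2.3% of all genes) and Acad9 the lower ones to make 2 (2.34%). The HFD-fed controls lay wholly above the chow-fed ones for 5 members (3.3% of all genes), Acadvl, Acad11, Ech1, Acaa2 and Eci1, and wholly below for 3 (3.83%), Acadm, Acad9 and Echs1. After adjustment no member passed without Chow CTRL replicate 3 or 4 or without HFD CTRL replicate 2 or 3. Acad9 alone passed without Chow CTRL replicate 1, Acaa2 alone without Chow CTRL replicate 2, and Acaa2 and Eci1 without HFD CTRL replicate 1. In the samples labelled NiPKO the same contrast gave 17 higher means (51% of all genes) and 10 lower ones (49%), a median of 0.06, and no member at an adjusted p under 0.05 in either direction (0.126% of all genes were higher and 0.135% lower). There, Hadhb and Eci1 passed the study's thresholds as higher (2.26% of all genes) and none as lower (2.21%). At an unadjusted p under 0.05 there were 10 members (13.4% of all genes). Of the 11090 genes above the median level, 5115 had a higher mean on HFD in controls and 6891 in the samples labelled NiPKO. In the latter, 1422 of these genes were higher and 636 lower at an unadjusted p under 0.05. The 17 of 27 members with a higher mean there are close to the share of such genes. The groups did not overlap for 3 higher members (5.03% of all genes), Acad11, Hadhb and Ech1, and for 3 lower ones (3.21%), Crat, Acadm and Acad9. Without HFD NiPKO replicate 1 this contrast had 7 higher members without overlap (6.68% of all genes) and 4 lower ones (5.24%). By the study's thresholds 3 members were then higher, Acadvl, Hadhb and Eci1 (2.41% of all genes), and none passed after adjustment. The white adipocyte, endothelial and podocyte sums were higher on HFD in these same samples, and their part was not tested.

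Averaged over both genotypes, Acadvl, Acad11, Ech1, Acaa2 and Eci1 rose on HFD at an adjusted p under 0.05 (1.43% of all genes were higher by this rule), and Acadm, Acad9 and Echs1 fell (1.71% of all genes). Of the 11090 genes above the median level, 271 were higher and 341 lower by this rule. The differences of the members ran from -0.23 for Echs1 to 0.40 for Eci1. By the study's thresholds 4 members were higher on this average (1.13% of all genes), Acadvl, Ech1, Acaa2 and Eci1, and none was lower (1.57%). Set beside the genotype averages, Acadvl and Acaa2 were higher on HFD and lower in the samples labelled NiPKO, and Echs1 was lower in both contrasts. Crat, Acadl, Etfa and Etfdh passed only for genotype, with diet averages between -0.07 and 0.16, and Ech1, Eci1, Acad9, Acad11 and Acadm only for diet, with genotype averages between -0.14 and 0.04. That a member passed for one factor and not for the other does not show that its differences were unequal, which was not tested.

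**Figure D2:**
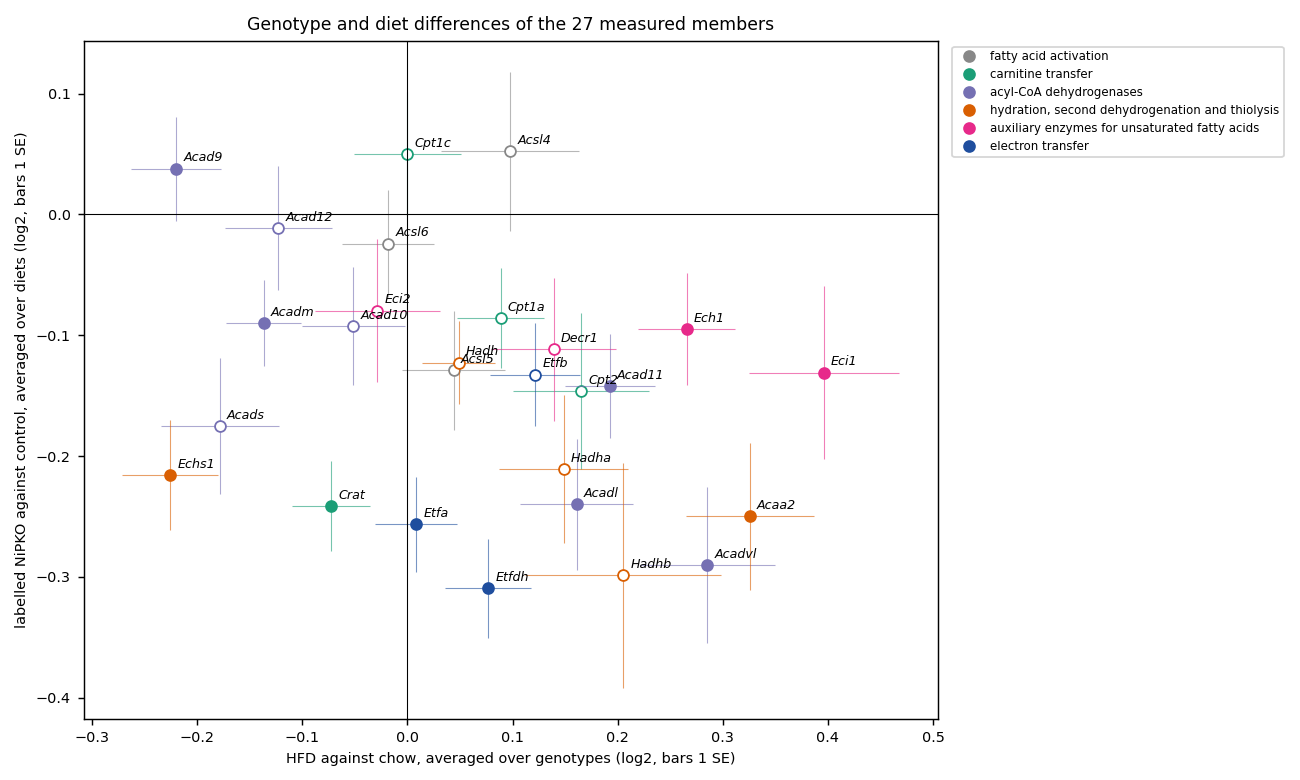
Difference between samples labelled NiPKO and controls, averaged over diets (vertical axis, log2), against the difference between HFD and chow, averaged over genotypes (horizontal axis, log2), for each of the 27 measured members, with bars of 1 SE, colours for the roles and filled points where either average passed an adjusted p under 0.05. Acadvl and Acaa2 lie at the lower right, Echs1 at the lower left, and Etfdh lowest, at -0.31.

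The interaction of genotype and diet, which asks whether the HFD response differed between the genotypes, passed for no member and for none of the 22180 genes at an adjusted p under 0.05 (0% of all genes). At an unadjusted p under 0.05 it held 1 member, Cpt1c (8.24% of all genes), which also passed the study's fold threshold as lower (3.71% of all genes), with none higher (2.04%). It did not pass without Chow CTRL replicates 1 or 4, Chow NiPKO replicates 2 or 4, or HFD NiPKO replicates 1 or 4, where the count of members was 0. The median over the members was -0.04, with 16 of 27 below 0 (49.1% of all genes). Of the 11090 genes above the median level, 3728 were below 0, with a median of 0.05. The 4 next smallest p-values among the members were those of Decr1 (0.0693), Hadhb (0.0829), Acaa2 (0.0927) and Echs1 (0.125). The 95% intervals of the interaction were wide beside the responses themselves, as for Acaa2, where the estimate was -0.22 ± 0.12 (SE) and the response in controls was 0.43.

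The starts of the genes were searched for 4 letter patterns, since the study concerns a coactivator of transcription factors. RefSeq promoter windows of build GRCm38.p6, from 250 bases before to 50 after a start, were held for 25 of 30 members. Crat, Acaa2, Acad9, Decr1 and Cpt1b had none in the table. Both strands were searched. The NRF-1 core, a run of 10 letters that reads the same on both strands and stands in capitals in the sequences below, was in the windows of 3 of the 25, Etfdh, Acad10 and Acad12, a share of 12% against 1.49% of 16990 measured genes and 0.971% of all 32851 windows. It was in 0 of 14 citrate cycle genes with a window and 0 of 15 of peroxisomal β-oxidation, lists described below. The stretches are shown because Etfdh had the smallest p of the members on the genotype average, while Acad10 and Acad12 did not pass in any comparison. None of the 3 cores overlapped an Sp1 box. Capitals mark the core, which begins 128 bases before the start in Etfdh, 44 in Acad12 and 8 in Acad10. They lie at chr3:79628866-79628915, chr5:121618953-121619002 and chr5:121660509-121660538, all on the minus strand.
Etfdh: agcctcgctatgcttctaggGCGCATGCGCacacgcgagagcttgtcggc
Acad12: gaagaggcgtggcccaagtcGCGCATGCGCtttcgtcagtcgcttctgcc
Acad10: aaaggggcgaggccccgggcGCGCATGCGC

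Of the other patterns, the ERR element TNAAGGTCA was in the window of 1 member, Acsl6, which did not pass any test (1.18% of measured genes held it), and the PPAR element, which is the hexamer AGGTCA repeated after a spacer of any 1 base and so overlaps the end of the former, in none (0.0647% of measured genes). The Sp1 box GGGCGG was in 19 of 25 windows, 76.0% against 49.5% of measured genes. Its share was 64.3% of the citrate cycle genes and 60.0% of those of peroxisomal β-oxidation. Hadha and Hadhb, which encode the partner subunits of the trifunctional protein, point away from each other with 272 bases between their starts, and 228 bases belong to the windows of both. The 250 bases before the start of Hadhb, chr5:30155003-30155252 on the plus strand, are shown because they lie between the starts of both genes, with the 2 Sp1 boxes in capitals.
Hadhb: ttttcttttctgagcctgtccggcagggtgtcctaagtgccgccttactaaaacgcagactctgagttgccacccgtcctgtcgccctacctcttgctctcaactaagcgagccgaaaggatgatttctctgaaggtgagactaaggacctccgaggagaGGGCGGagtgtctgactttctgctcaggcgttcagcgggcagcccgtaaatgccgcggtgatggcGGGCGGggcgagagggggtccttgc
A match is a run of letters and no evidence of binding, and factors bind variants of these patterns and at a distance.

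Among the genes of activation and carnitine transfer, Crat alone passed after adjustment. Of the acyl-CoA synthetases, which attach coenzyme A to long-chain fatty acids, Acsl4, Acsl5 and Acsl6 were measured and none passed in any comparison. Acsl5 read 0.20 ± 0.07 (SE) lower in the chow-fed samples labelled NiPKO (adjusted p = 0.208) and 0.05 lower on HFD. Acsl6 was dim, between 4.84 and 5.08 in all samples, as was its further probe set.

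Cpt1a, the malonyl-CoA-sensitive outer membrane carnitine palmitoyltransferase of liver and kidney, differed by 0.07 and 0.10 between the genotypes on chow and HFD, in both cases with the samples labelled NiPKO lower, and did not pass (adjusted p = 0.698 and 0.553). Cpt2, which returns the acyl group to coenzyme A in the matrix, read 0.17 ± 0.06 (SE) higher on HFD averaged over genotypes (adjusted p = 0.198). Cpt1c, a form known from brain, was at 6.32, 6.36, 6.46 and 6.25 in chow-fed controls and 6.47, 6.62, 6.49 and 6.54 in the chow-fed samples labelled NiPKO. On HFD the levels were 6.57, 6.47, 6.32 and 6.55 in controls and 6.28, 6.55, 6.42 and 6.34 in the samples labelled NiPKO. The chow groups did not overlap and the HFD groups did. Its interaction estimate was -0.27 ± 0.10 (SE; unadjusted p = 0.0191, adjusted p = 0.544).

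Crat, the matrix enzyme that buffers acetyl-CoA as acetylcarnitine, was the carnitine gene that differed. It was at 10.63, 10.80, 10.80 and 10.68 in chow-fed controls and at 10.59, 10.49, 10.52 and 10.45 in the chow-fed samples labelled NiPKO. With HFD it stood at 10.68, 10.67, 10.73 and 10.64 in controls and at 10.44, 10.45, 10.38 and 10.37 in the samples labelled NiPKO. The samples labelled NiPKO were the lower ones on either diet without overlap, by 0.21 ± 0.05 (SE) on chow (adjusted p = 0.0641) and 0.27 ± 0.05 on HFD (adjusted p = 0.0239), and by 0.24 ± 0.04 over both (adjusted p = 0.00119). The call on HFD was lost without HFD CTRL replicates 1, 2 or 3 or HFD NiPKO replicates 1, 3 or 4 (highest adjusted p over all alternatives 0.0896). Its dimmer probe set differed by -0.07 on chow and -0.27 on HFD, so the probe sets were alike on HFD and less so on chow.

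The acyl-CoA dehydrogenases open each round of the cycle, and all 8 were measured. On the genotype average 2 of the 8 fell, Acadl and Acadvl, and on the diet average 2 fell, Acadm and Acad9, and 2 rose, Acadvl and Acad11. Acadl and Acadvl act on long chains and very long chains. Acadvl was at 9.01, 8.996, 8.89 and 8.81 in chow-fed controls and at 8.72, 8.41, 8.69 and 8.85 in the chow-fed samples labelled NiPKO. On HFD it was at 9.07, 9.38, 9.27 and 9.25 in controls and at 8.79, 8.92, 8.94 and 9.04 in the samples labelled NiPKO. The groups overlapped on chow and did not on HFD, and the HFD-fed samples labelled NiPKO lay in the range of the chow-fed controls or close to it. Averaged over diets, Acadvl was 0.29 ± 0.06 (SE) lower in the samples labelled NiPKO (adjusted p = 0.0191), and averaged over genotypes it was 0.29 ± 0.06 higher on HFD (adjusted p = 0.0232). The latter was lost without Chow CTRL replicate 4, HFD CTRL replicate 2 or HFD NiPKO replicate 4 (highest adjusted p = 0.0544).

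Acadl was at 10.49, 10.53, 10.46 and 10.39 in chow-fed controls and at 10.36, 10.06, 10.27 and 10.32 in the chow-fed samples labelled NiPKO. The HFD values were 10.50, 10.73, 10.69 and 10.69 in controls and 10.30, 10.29, 10.53 and 10.42 in the samples labelled NiPKO. The chow groups did not overlap, and on HFD the highest sample labelled NiPKO reached above the lowest control. The genotype average was -0.24 ± 0.05 (SE, adjusted p = 0.021), and the diet average of 0.16 ± 0.05 did not pass (adjusted p = 0.126). Without Chow CTRL replicate 2 or HFD CTRL replicate 2 the genotype average no longer passed (highest adjusted p = 0.0509).

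Of Acadm and Acads, which take medium and short chains, the former was lower on HFD. Acadm was at 12.35, 12.38, 12.41 and 12.39 in chow-fed controls and at 12.21, 12.30, 12.20 and 12.31 in HFD-fed controls. The samples labelled NiPKO had 12.36, 12.23, 12.27 and 12.35 on chow and 12.13, 12.19, 12.11 and 12.20 on HFD. The diets did not overlap in either genotype, and the diet average was -0.14 ± 0.04 (SE, adjusted p = 0.048), a call that was lost on leaving out any of 15 of the 16 samples, the exception being HFD CTRL replicate 4. Acads read 0.18 ± 0.06 lower on HFD averaged over genotypes and 0.18 ± 0.06 lower in the samples labelled NiPKO averaged over diets, and neither passed (adjusted p = 0.0992 and 0.129).

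Acad9 and Acad11 were diet members of this family in opposite directions. Acad9, best known as an assembly factor of complex I, was at 8.75, 8.85, 8.94 and 8.89 in chow-fed controls and at 8.60, 8.50, 8.53 and 8.70 in HFD-fed controls. Among the samples labelled NiPKO it was at 8.88, 8.82, 8.84 and 8.81 on chow and at 8.78, 8.69, 8.64 and 8.58 on HFD. HFD was lower without overlap in both genotypes, with an average of -0.22 ± 0.04 (SE, adjusted p = 0.0102), while the genotype average was 0.04 ± 0.04 (adjusted p = 0.796).

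Acad11, which takes long chains and hydroxy fatty acids, was at 10.77, 10.80, 10.65 and 10.70 in chow-fed controls and at 10.86, 11.01, 10.90 and 10.92 in HFD-fed controls. In the samples labelled NiPKO it was at 10.69, 10.57, 10.44 and 10.65 on chow and at 10.77, 10.76, 10.86 and 10.74 on HFD. HFD was higher without overlap in both genotypes, by 0.19 in each, and the average was 0.19 ± 0.04 (SE, adjusted p = 0.022). Without HFD NiPKO replicate 3 the adjusted p was 0.0531. Acad10 and its neighbour Acad12 on chromosome 5 did not pass in any comparison.

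**Figure D3:**
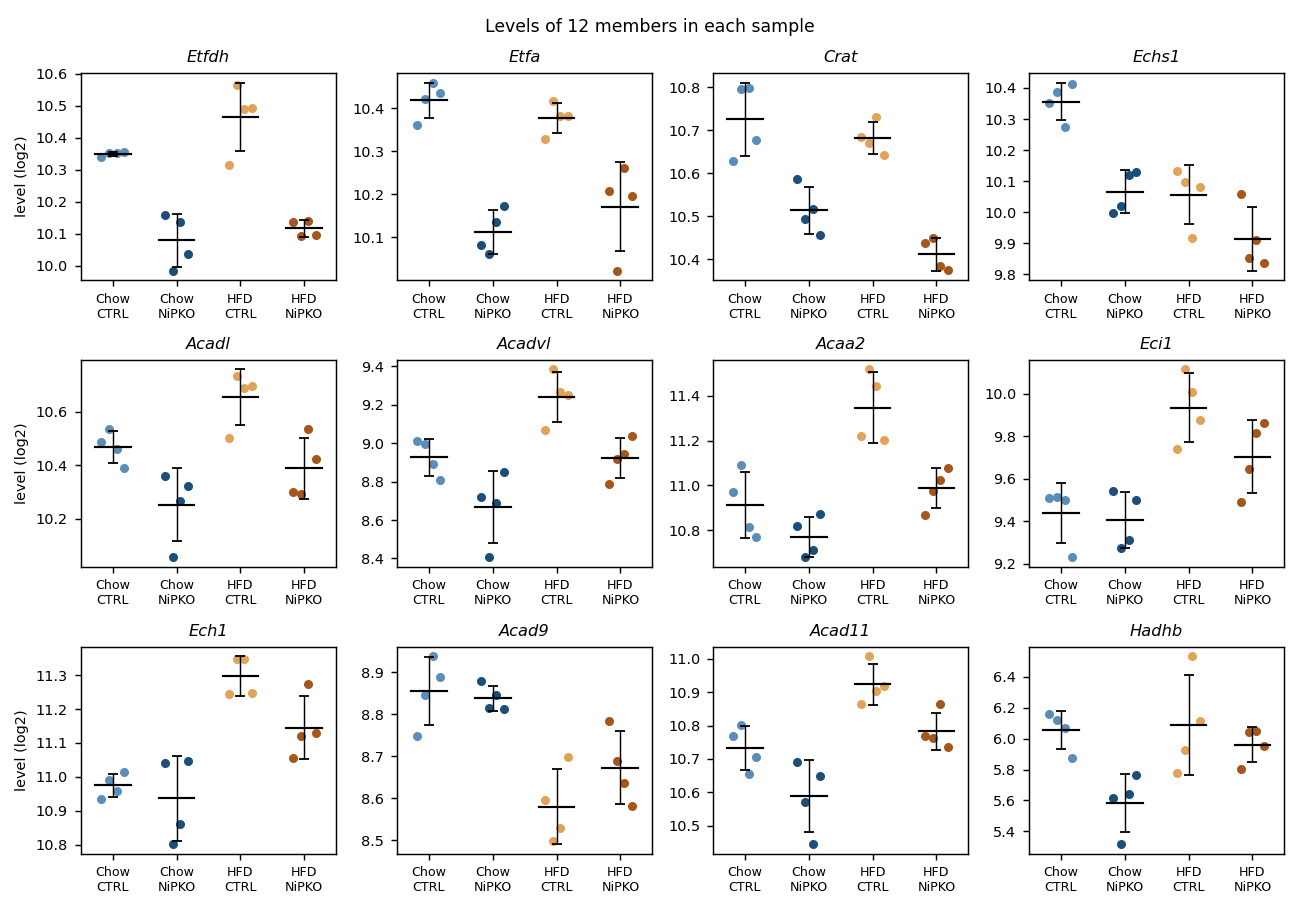
Levels (log2, vertical axes) of 12 members in each of the 16 samples, by group, with the mean as a horizontal line and bars of 1 SD over 4 samples. Vertical axes differ between panels and do not start at 0. Etfdh, Etfa and Crat separate the genotypes on both diets, and Eci1, Ech1 and Acaa2 have their highest means in HFD-fed controls.

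In the later steps of the cycle, Echs1, the short-chain enoyl-CoA hydratase, was lower with either factor. It was at 10.35, 10.39, 10.27 and 10.41 in chow-fed controls and at 9.997, 10.02, 10.12 and 10.13 in the chow-fed samples labelled NiPKO. On HFD the levels were 10.13, 10.10, 9.92 and 10.08 in controls and 10.06, 9.85, 9.91 and 9.84 in the samples labelled NiPKO. The chow-fed controls stood above all other samples. Genotype on chow gave -0.29 ± 0.06 (SE, adjusted p = 0.0345) and diet in controls -0.30 ± 0.06 (adjusted p = 0.0479), comparisons that share the chow-fed controls. The genotype call was lost on leaving out any 1 of the chow-fed samples other than Chow CTRL replicate 3 (highest adjusted p over all alternatives 0.118), and the diet call on leaving out any 1 of the 8 control samples (0.235). On HFD the genotype difference was -0.14 ± 0.06 (adjusted p = 0.435), and the interaction of 0.15 ± 0.09 did not pass (adjusted p = 0.694). The averages were -0.22 ± 0.05 for genotype (adjusted p = 0.0138) and -0.23 ± 0.05 for diet (adjusted p = 0.0122).

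Acaa2, the thiolase that splits off acetyl-CoA from medium and long chains, was at 10.97, 11.09, 10.82 and 10.77 in chow-fed controls and at 10.82, 10.68, 10.71 and 10.87 in the chow-fed samples labelled NiPKO. With HFD it stood at 11.22, 11.52, 11.44 and 11.20 in controls and at 10.87, 10.98, 11.03 and 11.08 in the samples labelled NiPKO. The HFD-fed controls stood above all other samples, and the HFD-fed samples labelled NiPKO lay within the range of the chow-fed controls. HFD raised it by 0.43 ± 0.09 (SE) in controls (adjusted p = 0.0326), a 1.35-fold change that did not pass without Chow CTRL replicates 1, 3 or 4 or HFD CTRL replicates 2 or 3 (highest adjusted p over all alternatives 0.287). In the samples labelled NiPKO the difference was 0.22 ± 0.09 (adjusted p = 0.278), and the interaction did not pass (adjusted p = 0.667). The genotype average of -0.25 ± 0.06 passed (adjusted p = 0.0354) and was lost on leaving out any of 9 samples, Chow CTRL replicates 1 and 2, Chow NiPKO replicates 2 and 3, HFD CTRL replicates 2 and 3, or HFD NiPKO replicates 1, 2 and 3 (highest adjusted p = 0.0807).

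Hadhb, the thiolase subunit of the trifunctional protein, gave a dim probe set, with a mean of 5.92 against a median of 5.94 over all genes. It was at 6.16, 6.12, 6.07 and 5.88 in chow-fed controls and at 5.61, 5.32, 5.64 and 5.76 in the chow-fed samples labelled NiPKO. On HFD it was at 5.78, 5.93, 6.53 and 6.11 in controls and at 5.81, 6.04, 6.05 and 5.95 in the samples labelled NiPKO. The chow-fed samples labelled NiPKO stood below all other samples. The difference on chow was -0.47 ± 0.13 (SE), the largest in size among the members in that comparison, and it did not pass after adjustment (adjusted p = 0.105). Its partner Hadha, the hydratase and dehydrogenase subunit, differed by -0.12 ± 0.09 on chow (adjusted p = 0.609) and -0.30 ± 0.09 on HFD (adjusted p = 0.159). Hadh, which carries out the second dehydrogenation on shorter chains, separated the genotypes on both diets by 0.13 and 0.11, lower in the samples labelled NiPKO, with a genotype average of -0.12 ± 0.03 that did not pass (adjusted p = 0.0768).

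The auxiliary enzymes, which bring the double bonds of unsaturated fatty acids into a form the cycle accepts, were the role with the largest median response to HFD in controls. Over the 4 genes it was 0.29 in controls and 0.12 in the samples labelled NiPKO. Eci1, an enoyl-CoA isomerase, was at 9.51, 9.52, 9.50 and 9.23 in chow-fed controls and at 9.74, 10.12, 10.01 and 9.88 in HFD-fed controls. The samples labelled NiPKO had 9.54, 9.27, 9.31 and 9.50 on chow and 9.49, 9.65, 9.82 and 9.87 on HFD. HFD was higher without overlap in controls and with overlap in the samples labelled NiPKO, by 0.49 ± 0.10 (SE, adjusted p = 0.0373) and 0.30 ± 0.10 (adjusted p = 0.204). The first was a 1.41-fold change, and its call was lost on leaving out any 1 of the 8 control samples other than HFD CTRL replicate 1 or 4 (highest adjusted p over all alternatives 0.27). Averaged over genotypes Eci1 rose by 0.40 ± 0.07 (adjusted p = 0.00665).

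Ech1, a dienoyl-CoA isomerase, was at 10.94, 10.99, 10.96 and 11.01 in chow-fed controls and at 11.24, 11.35, 11.35 and 11.25 in HFD-fed controls. Among the samples labelled NiPKO it was at 11.04, 10.80, 10.86 and 11.05 on chow and at 11.06, 11.12, 11.28 and 11.13 on HFD. HFD was higher without overlap in both genotypes, by 0.32 ± 0.07 (SE) in controls (adjusted p = 0.0366) and 0.21 ± 0.07 in the samples labelled NiPKO (adjusted p = 0.169). The call in controls was lost on leaving out any 1 of the 8 control samples other than HFD CTRL replicate 4 (highest adjusted p over all alternatives 0.129), and the average over genotypes was 0.27 ± 0.05 (adjusted p = 0.00526). The genotype averages of Ech1 and Eci1, -0.09 and -0.13, did not pass (adjusted p = 0.391 and 0.462).

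Decr1, the dienoyl-CoA reductase, was at 9.62, 9.70, 9.57 and 9.56 in chow-fed controls and at 9.67, 9.91, 10.002 and 9.90 in HFD-fed controls. In the samples labelled NiPKO it was at 9.76, 9.52, 9.57 and 9.62 on chow and at 9.51, 9.55, 9.85 and 9.66 on HFD. The diets overlapped in both genotypes, with differences of 0.25 ± 0.08 (SE, adjusted p = 0.196) in controls and 0.02 ± 0.08 in the samples labelled NiPKO. Its interaction of -0.23 ± 0.12 did not pass (adjusted p = 0.641). Eci2, a further isomerase, differed by at most 0.15 in size in the 4 comparisons of groups and did not pass.

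Electron transfer held the 2 members with the smallest p-values on the genotype average. Etfdh, the oxidoreductase that hands the electrons to ubiquinone, was at 10.34, 10.35, 10.35 and 10.35 in chow-fed controls and at 10.16, 9.98, 10.14 and 10.04 in the chow-fed samples labelled NiPKO. The HFD values were 10.31, 10.57, 10.49 and 10.49 in controls and 10.14, 10.09, 10.14 and 10.09 in the samples labelled NiPKO. All 8 samples labelled NiPKO lay below all 8 controls. The difference was -0.27 ± 0.06 (SE) on chow (adjusted p = 0.0267) and -0.35 ± 0.06 on HFD (adjusted p = 0.00991), and -0.31 ± 0.04 over both, a 1.24-fold change (adjusted p = 0.000334). The call on chow was lost on leaving out any 1 of the Chow CTRL samples or Chow NiPKO replicates 2 or 4 (highest adjusted p over all alternatives 0.112), and that on HFD was kept whichever single sample was left out. The NRF-1 core printed above is in the window of this gene.

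Etfa, the α subunit of the flavoprotein, was at 10.36, 10.42, 10.46 and 10.44 in chow-fed controls and at 10.08, 10.06, 10.13 and 10.17 in the chow-fed samples labelled NiPKO. On HFD the levels were 10.33, 10.42, 10.38 and 10.38 in controls and 10.21, 10.02, 10.26 and 10.20 in the samples labelled NiPKO. Here too all 8 samples labelled NiPKO lay below all 8 controls. The difference was -0.31 ± 0.06 (SE) on chow (adjusted p = 0.00943) and -0.21 ± 0.06 on HFD (adjusted p = 0.117), with an average of -0.26 ± 0.04 (adjusted p = 0.00107). The call on chow was kept whichever single sample was left out. The diet average was 0.01 ± 0.04. Etfb, the β subunit, read 0.13 ± 0.04 lower in the samples labelled NiPKO averaged over diets (adjusted p = 0.132) and separated the genotypes on HFD only.

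Single samples stood low for many members at once. The mean level over the 27 members was 9.64, 9.69, 9.64 and 9.58 in chow-fed controls and 9.58, 9.42, 9.51 and 9.54 in the chow-fed samples labelled NiPKO. It was 9.64, 9.75, 9.75 and 9.72 in HFD-fed controls and 9.53, 9.55, 9.60 and 9.58 in the HFD-fed samples labelled NiPKO. Chow NiPKO replicate 2 was the lowest of its group for 16 of 27 members, and HFD CTRL replicate 1 of its group for 15 of 27. The same count over all genes is not given. Over all genes, the means of these samples were 6.188 and 6.194, the highest of their groups (others 6.179 to 6.186 and 6.177 to 6.182). Their proximal tubule marker sums, 45369 and 44152, lay within or at the lower end of the ranges of their groups. Without Chow NiPKO replicate 2, genotype on chow gave 3 members past the study's thresholds and 1 after adjustment.

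**Figure D4:**
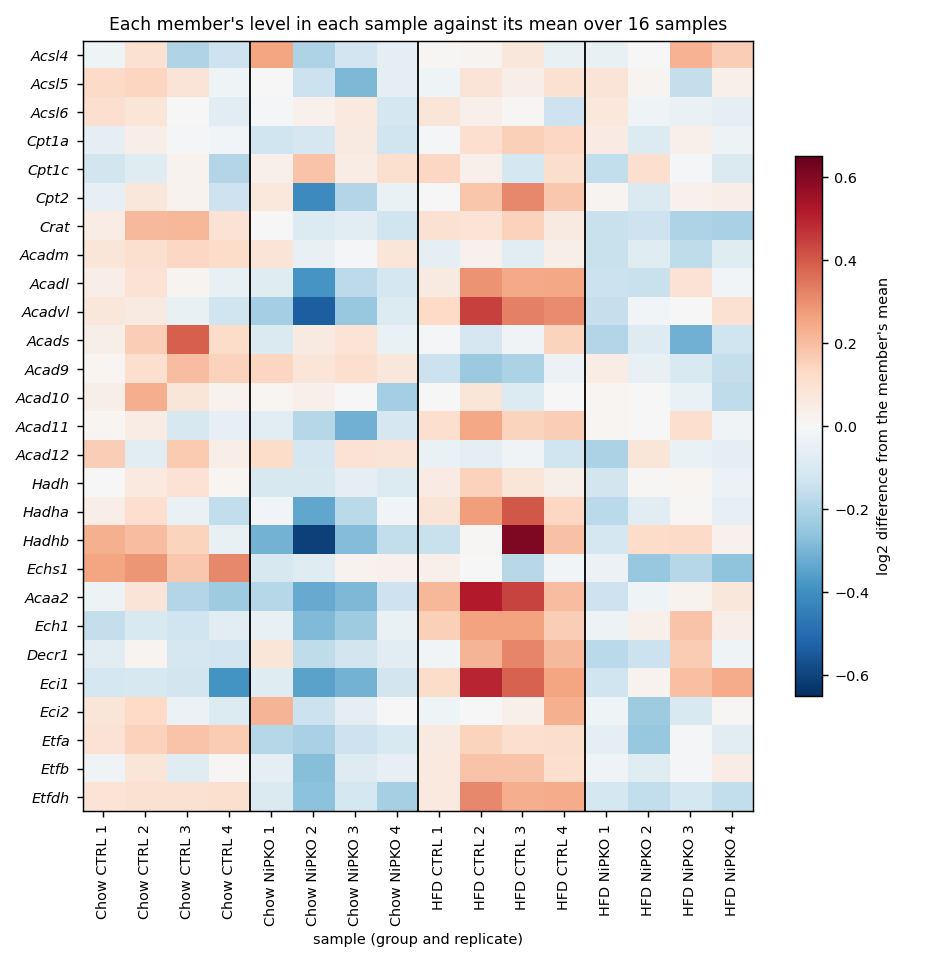
Difference of each member's log2 level in each sample (columns, by group and replicate) from that member's mean over the 16 samples (rows, ordered by role), as colour from blue for lower to red for higher. Chow NiPKO replicate 2 is blue for most members, and HFD CTRL replicates 2 and 3 are the reddest columns for Acaa2 and Eci1.

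Genes around the pathway were read from lists of names. The citrate cycle, which takes up the acetyl-CoA, had all 16 measured genes lower in the samples labelled NiPKO on both diets, with medians of -0.28 and -0.25, and 12 and 8 of them passed an adjusted p under 0.05. On the diet average 0 of its 16 genes passed after adjustment. Peroxisomal β-oxidation, 17 of 20 genes measured, had medians of -0.02 and -0.06 between the genotypes with none past the adjusted threshold. HFD lowered Acox2 and Amacr, enzymes of the branched-chain branch of that pathway, by 0.59 and 0.52 in controls (adjusted p = 0.0139 and 0.035). On the diet average 3 of the 17 fell, these and Crot, the carnitine octanoyltransferase of peroxisomes, by 0.26 ± 0.06 (SE, adjusted p = 0.028), and 1 rose, Acot3.

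Genes that serve the members directly moved in part. Etfrf1, a regulator of the electron transfer flavoprotein, read 0.35 ± 0.11 (SE) lower on chow and 0.43 ± 0.11 lower on HFD in the samples labelled NiPKO, and its average of -0.39 ± 0.08 passed (adjusted p = 0.0105). It was 1 of 6 measured genes of flavin supply and flavoprotein maturation and the only one of them that passed on that average. Of 8 measured genes of carnitine supply and import, 2 fell on the genotype average, Shmt1, a serine hydroxymethyltransferase, by 0.28 ± 0.06 (adjusted p = 0.0153) and Slc22a4, an organic cation and carnitine transporter, by 0.24 ± 0.06 (adjusted p = 0.0356), and Shmt1 also fell on chow by 0.39 ± 0.09 (adjusted p = 0.0327). Slc25a20, the carnitine and acylcarnitine carrier between the palmitoyltransferases, was at 8.92, 8.92, 8.65 and 8.67 in chow-fed controls and at 8.97, 9.29, 9.46 and 9.15 in HFD-fed controls. The samples labelled NiPKO had 8.91, 8.36, 8.71 and 8.79 on chow and 8.90, 8.66, 9.09 and 8.92 on HFD. HFD was higher without overlap in controls, by 0.43 ± 0.13 (adjusted p = 0.149), and with overlap in the samples labelled NiPKO, by 0.20 ± 0.13 (adjusted p = 0.527).

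Among 8 thioesterases of mitochondria, which release free fatty acids from coenzyme A, Acot2 rose on HFD by 0.30 ± 0.06 (SE) averaged over genotypes (adjusted p = 0.0172) and Acot9 fell by 0.29 ± 0.07 (adjusted p = 0.0288). Mean levels of Acot9 on chow and HFD were 6.57 and 6.12 in controls, and 6.21 and 6.08 in the samples labelled NiPKO. Those of Acot2 were 9.11 and 9.51 in controls, and 8.99 and 9.20 in the samples labelled NiPKO. Acot11 and Them4 fell in the samples labelled NiPKO averaged over diets, by 0.33 and 0.26 (adjusted p = 0.00359 and 0.0337). Acot3, a peroxisomal thioesterase, was 0.92 ± 0.23 higher on HFD averaged over genotypes (adjusted p = 0.0385) and read 0.85 ± 0.23 lower in the samples labelled NiPKO (adjusted p = 0.0631). Of 9 measured genes of short- and medium-chain activation, Acsm1 fell on HFD by 0.70 in controls and 0.62 in the samples labelled NiPKO (adjusted p = 0.0134 and 0.0296), with no genotype call on either diet. On the diet average 3 of the 9 fell, Acsm1, Acsm2 (-0.27, adjusted p = 0.0101) and Acsm5 (-0.31, adjusted p = 0.0494), and Acsf2 rose by 0.42 (adjusted p = 0.0377). Acss1, the mitochondrial acetyl-CoA synthetase, was the 1 of the 9 that fell on the genotype average, by 0.21 (adjusted p = 0.042). Of 7 measured dehydrogenases outside the cycle that feed the flavoprotein, Ivd, of leucine breakdown, fell by 0.53 ± 0.11 on HFD in controls (adjusted p = 0.0442). Of 7 genes of malonyl-CoA control and 8 of very-long-chain activation, none passed after adjustment in the comparisons or averages.

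Of the regulators, Esrra, which encodes ERRα, fell in the samples labelled NiPKO averaged over diets by 0.21 ± 0.05 (SE, adjusted p = 0.0211). Ppara, which encodes PPARα, rose on HFD averaged over genotypes by 0.20 ± 0.05 (adjusted p = 0.0276), and its genotype average of -0.11 ± 0.05 did not pass (adjusted p = 0.303). The 10 measured targets of PPARα outside β-oxidation had medians of 0.23 for HFD in controls and 0.06 in the samples labelled NiPKO, and none of the 10 passed an adjusted p under 0.05 in these comparisons. By the study's thresholds 3 were higher on HFD in controls (2.3% of all genes). In the samples labelled NiPKO none was higher (2.26%) and 1 lower (2.21%). Between the genotypes, 3 of the 10 were lower on chow (median 0.09) and all 10 on HFD (median -0.21), against 47.4% and 49.4% of all genes. The interaction was below 0 for all 10 (median -0.33, 49.1% of all genes), and none passed after adjustment.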

How the data were processed

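Total RNA of whole kidney, extracted with Trizol, was hybridised to Affymetrix Mouse Gene 2.0 ST arrays, 4 per group. The authors deposited log2 values for 41345 probe sets and 16 samples. Partek is the tool named in the submitters' processing notes. How background was corrected and arrays normalized was not given in the sources used here. Array medians lay between 5.35 and 5.4, and precision is limited by how many arrays each group holds.

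Names came from the platform annotation: 23521 had 1 symbol, 1820 several and 16004 none. Gene IDs of 23328 were found in the RefSeq table, with 0 symbols changed. The brightest single-symbol probe set stood for each of 22180 genes, and 1082 genes had more than 1.

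The values were taken as deposited. limma 3.58.1 in R 4.3.3 (lmFit and eBayes, two-sided) fitted one mean per group over the 16 samples, with Benjamini-Hochberg adjustment of the p-values over all 22180 genes. Adjusted p-values in the text come from this fit, and errors are its standard errors unless called SD. The 4 comparisons of groups share samples, so their calls are not independent of each other. The study's thresholds were a fold change over 1.2 at an unadjusted p under 0.05, with a t-test in its methods, which was run as an alternative. The fit was tested on simulated data.

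Members and lists were chosen with earlier results of these data known. Members were described with all their values where they passed an adjusted p under 0.05 in a comparison or average, passed the study's thresholds in at least 2 comparisons, or were among the 5 with the smallest interaction p. In each related list, genes past the study's thresholds or an adjusted p under 0.05 could be named, at most the 4 with the smallest p in a comparison, as could Slc25a20, Acot2, Acot3 and Ppara. Of these, the text names those that passed after adjustment outside the citrate cycle, which is given by its counts. Same-numbered samples deviated together weakly at most: 3 of 24 pairs correlated above 0.1 (range -0.107 to 0.166), with a median of -0.002 over other pairs. The numbers were not used as pairs, though 7 of 16 samples correlated best with their own number. A replicate block was run as an alternative.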

Additional observations from a re-analysis of the deposited data

Results flagged for a closer look

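In groups of 4 samples, 5 of the 108 groups of member values held a sample whose gap to the nearest other took up most of the group's range (above Dixon's 95% critical value), about the number that chance gives at 1 in 20. Cpt1a was at 11.75 in Chow NiPKO replicate 3 and at 11.57 to 11.59 in the other samples of that group. Acad10 was at 7.97 in Chow NiPKO replicate 4 and at 8.19 to 8.22 in the others. Chow NiPKO replicate 2 was apart for Acad12, at 6.90 against 7.09 to 7.12, and for Etfb, at 10.99 against 11.19 to 11.22. Eci1 was at 9.23 in Chow CTRL replicate 4 and at 9.50 to 9.52 in the others.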

How the results depend on the processing

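All called differences of single members kept their sign under every alternative run, in 422 of 422 values over 35 results. This count cannot test their direction, since several alternatives change the error and not the estimate. The differences were also chosen because they were called. Counts at an adjusted p under 0.05 moved with the test. On chow, 3 members differed between genotypes. With the arrays of the 2 groups alone the count was 0, with the methods' t-test 1 and with a replicate block 1. On HFD the count of 2 became 0 with the groups alone, 0 with the t-test, 1 with the replicate block, and 4 both among genes above the median level and with a mean-variance trend and robust prior. For HFD in controls the count of 4 became 0 with the groups alone, with the t-test and with the replicate block. The genotype average went from 7 to 11 members with the trend and robust prior, and under the replicate block Acaa2 no longer passed there (adjusted p = 0.0642). By the study's thresholds, the count for HFD in the samples labelled NiPKO went from 2 to 1 among genes above the median level, where Hadhb and Acsl6 were not tested, and the interaction count from 1 to 2 with quantile normalization and 0 with median centring. The replicate numbers were not taken as pairs because 3 of 24 same-numbered pairs correlated above 0.1. As a hint from the data, 7 of 16 samples correlated best with their own number.

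Leaving out 1 sample at a time gave 3 to 5 members by the study's thresholds and 1 to 2 after adjustment for genotype on chow, with a median of -0.15 to -0.061, the latter without Chow NiPKO replicate 2. For genotype on HFD the counts were 3 to 8 and 1 to 2, with a median of -0.17 to -0.13. HFD in controls gave 4 to 8 and 0 to 4, with a median of 0.05 to 0.12, and HFD in the samples labelled NiPKO 1 to 3 and 0 to 0, with 0.03 to 0.07. The interaction gave 0 to 2 and 0 to 0, with -0.06 to -0.01. The genotype average gave 1 to 6 and 5 to 8, with -0.15 to -0.11, and the diet average 2 to 4 and 6 to 8, with 0.06 to 0.10. Where a count moved, the cause was not tested. Hadhb, Acsl6 and Cpt1c read at or near the level of dim genes, 5.92, 4.97 and 6.44, where array signal limits small differences.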
